A study of Homo sapiens with 15 samples.

Results

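JQ1-FCPF and JQ1 were compared in K562 cells that carried Cas9FCPF but no sgRNA, the 2 groups in which both compounds met cells with no guide to direct Cas9. K562 is a human erythroleukaemia line from chronic myeloid leukaemia. The members were chosen by genotype and treatment label: 3 libraries of Cas9FCPF-sgRNA cells given JQ1-FCPF and 3 libraries of Cas9FCPF-sgRNA cells given JQ1, 6 of the 15 libraries of the series. Either compound was given at 1 µM, and RNA was taken after 1 h. The other groups used here were JQ1-FCPF and JQ1 in cells transfected with Cas9FCPF and sgRNA (3 libraries each) and a control of 3 libraries, labelled wild type and NT, which the series text calls DMSO. Transfection of the control cells is not stated, so a comparison with them holds transfection, Cas9FCPF and compound together. The series is titled with dCas9, the form that does not cut DNA, where the labels have Cas9. Doses and times were matched, and 1 pair of compounds was compared here. The structure of JQ1-FCPF beyond its name, the target of the sgRNA and the origin of the replicates were not stated in the labels, so p-values measure the spread between these libraries, which may be technical.

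JQ1 occupies the acetyl-lysine pocket of the BET bromodomain proteins, BRD2 and BRD3 among them. These proteins read acetylated histones and help to recruit P-TEFb, the kinase that releases paused RNA polymerase II, so genes with short-lived transcripts and strong enhancers are known to react to BET inhibitors within the first hours. In leukaemia cells a fall of MYC and a rise of HEXIM1, the inhibitor of P-TEFb, are the usual readouts. FCPF is a short cysteine-containing peptide, known as the pi-clamp, that reacts with perfluoroaromatic groups, and both Cas9FCPF and JQ1-FCPF carry its name.

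Library totals were 13237263 to 16165017 counts with JQ1-FCPF and 13017104 to 13809683 with JQ1, and 23737 to 27248 genes were detected in these 6 libraries, the highest number in JQ1 replicate 2. On the first principal component of the 6 libraries, with 45.2% of the variance, JQ1-FCPF lay between 16.1 and 26.6 and JQ1 between -27.2 and -20.7. JQ1-FCPF replicate 1 stood apart from its replicates 2 and 3 (chi-square per degree of freedom of the counts 19.87 and 19.51, against 2.96 between replicates 2 and 3, and 3.55 to 5.5 between JQ1 libraries). The labels call the cells lymphoblasts, and all 12 K562 markers (globins, GATA1 and other erythroid genes, BCR and ABL1) passed the filter on low counts, summing to 2720 to 2820 CPM (counts scaled to a common library size) with JQ1-FCPF and 2790 to 3030 CPM with JQ1. Of the markers of other cells, B cell markers summed to 4.19 to 4.85 CPM with JQ1-FCPF and 4.18 to 6.19 with JQ1, with MS4A1 at 0. T and NK cell markers summed to 28.6 to 35.6 CPM with JQ1-FCPF and 27.1 to 34.6 with JQ1, with CD8A at 0. Epithelial markers, KRT8 and KRT18 among them, summed to 1270 to 1390 CPM with JQ1-FCPF and 1150 to 1240 with JQ1, and fibroblast markers to 2.09 to 2.54 CPM with JQ1-FCPF and 3.6 to 3.81 with JQ1. Of the 9 tested markers of these other cells 0 were called. In the fit of all 15 libraries replicate 2 of JQ1-FCPF and replicate 1 of JQ1, both with sgRNA, stood apart from their groups. Some results that rest on the shared spread are also given without these 2 libraries, and the others are from the fit of all 15 only.

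JQ1-FCPF and JQ1 differed in 1210 of 15517 tested genes (7.8%; edgeR's quasi-likelihood test at a Benjamini-Hochberg adjusted p under 0.05). With JQ1-FCPF 638 genes were higher (4.11%) and 572 lower (3.69%) than with JQ1. Most differences were small: 583 of the 1210 exceeded 1.5-fold, 98 were over 2-fold higher and 80 over 2-fold lower, and tested against a change of 1.5-fold (edgeR's glmTreat) 1 gene passed. The 3 libraries of each group did not overlap in 36.2% of all tested genes. Leaving out 1 library moved the count a long way, to 973, 302 and 136 genes without JQ1-FCPF replicates 1, 2 and 3 and to 280, 76 and 370 without JQ1 replicates 1, 2 and 3. Without the 2 libraries that stand apart, 3554 of 15731 genes were called (22.6%), all 1210 among them. Of the 101 named genes called, 73, 43 and 29 were also called without JQ1-FCPF replicates 1, 2 and 3 and 50, 19 and 49 without JQ1 replicates 1, 2 and 3. Of these genes 19 were called in all 6 fits and 24 in none of them. Under the alternatives tried none of the 101 changed direction.

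The gene that passed the 1.5-fold test was AC079466.1, a long intergenic non-coding RNA on chromosome 19 (positions 28606688 to 28615229, + strand, GRCh38), named here after its values were seen. It had 205, 256 and 251 CPM with JQ1-FCPF, against 76.8, 70.4 and 78.3 CPM with JQ1. The groups were far apart, with a log2 fold change of 1.66 ± 0.19 (SE; edgeR adjusted p = 0.000172), and the control libraries stood at 252, 208 and 248 CPM. In the files 3 other genes overlap it on the opposite strand. The use of strand in counting is not given in the sources used here, so the counts of the 63 of 111 described genes that overlap another gene may hold reads of that gene. Among called protein-coding genes with a mean of at least 5 CPM and no overlap between groups, the largest rise with JQ1-FCPF was in PRR22, a proline-rich protein gene, at 13.4, 19.1 and 24.5 CPM with JQ1-FCPF against 6.12, 5.06 and 7.05 CPM with JQ1 (3.11-fold, edgeR adjusted p = 0.00491). EME2, a partner subunit of the MUS81 nuclease, was 2.36-fold higher with JQ1-FCPF, NEFH, the heavy neurofilament chain, 2.40-fold, AMH, the anti-Müllerian hormone gene, 2.19-fold, and FBXO9, a ubiquitin ligase subunit, 2.08-fold (edgeR adjusted p = 0.00491, 0.0109, 0.00868 and 0.00491). NEFH and AMH were no longer called without JQ1 replicate 2 (edgeR adjusted p = 0.0605 and 0.0604) or without JQ1-FCPF replicate 3 (0.0574 and 0.0582). Among non-coding genes, MIR22HG, the host transcript of miR-22, had 9.36, 13.6 and 12.6 CPM with JQ1-FCPF against 4.82, 3.81 and 3.86 CPM with JQ1 (2.84-fold, edgeR adjusted p = 0.00941, and 0.0609 without JQ1 replicate 2).

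Immediate early genes, which serum and ERK signalling switch on within minutes, are transcribed in bursts and their RNAs decay fast. EGR1, a zinc finger transcription factor of this class (chromosome 5, positions 138465490 to 138469315), had 274, 320 and 322 CPM with JQ1-FCPF, against 108, 123 and 123 CPM with JQ1. Each JQ1-FCPF library stood more than 2-fold above each JQ1 library, and the log2 fold change was 1.37 ± 0.23 (SE; edgeR adjusted p = 0.00407), in a range from 1.31 to 1.45 over the 14 alternatives other than the 1.5-fold test, each of which kept the call. FOS, a subunit of AP-1, had 17.9, 22.9 and 24.8 CPM with JQ1-FCPF against 10.8, 8.66 and 9.85 CPM with JQ1 (2.23-fold, edgeR adjusted p = 0.0165), a call lost in 5 of the 6 fits with 1 library left out, all except that without JQ1-FCPF replicate 1 (highest adjusted p 0.0883). JUN, the partner of FOS, gave a log2 fold change of 0.60 with an interval of 0.20 to 0.99 (edgeR adjusted p = 0.0559), and JUNB one of 0.08 (-0.26 to 0.41).

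The promoters of EGR1 and FOS are shown because these genes had the largest differences of the class. The RefSeq sequence (GRCh38.p14) runs from 250 bases before to 50 bases after the transcription start on the + strand, at chr5:138465229-138465528 for EGR1 and chr14:75278578-75278877 for FOS. Capitals mark CArG boxes, the motif bound by serum response factor, in EGR1 (2 matches, starting 105 and 83 bases before the start) and a TATAAA match in FOS (33 bases before the start), where no CArG box was found in this window.
EGR1: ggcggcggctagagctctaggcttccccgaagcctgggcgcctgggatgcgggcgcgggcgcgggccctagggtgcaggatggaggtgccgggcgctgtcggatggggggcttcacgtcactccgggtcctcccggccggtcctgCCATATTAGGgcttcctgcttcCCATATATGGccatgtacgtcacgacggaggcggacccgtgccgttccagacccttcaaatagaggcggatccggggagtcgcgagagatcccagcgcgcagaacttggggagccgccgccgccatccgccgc
FOS: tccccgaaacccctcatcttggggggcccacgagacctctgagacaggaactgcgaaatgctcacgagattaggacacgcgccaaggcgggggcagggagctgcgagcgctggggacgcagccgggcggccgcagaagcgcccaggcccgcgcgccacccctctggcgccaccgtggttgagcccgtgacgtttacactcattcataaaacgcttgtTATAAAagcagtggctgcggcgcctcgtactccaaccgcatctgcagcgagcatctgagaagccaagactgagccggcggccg
Promoters with a CArG box were 2 of 463 among the higher genes (0.432%), 4 of 420 among the lower genes (0.952%) and 0.995% of those of tested genes.

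Few other genes of the class were called. Of 22 tested EGR, IER and other immediate early genes 1 was higher and 0 lower with JQ1-FCPF (median log2 fold change 0.11), and of 13 AP-1 genes 1 was higher and 0 lower (median 0.18), against 4.11% higher and a median of 0.00 over all tested genes. Of 16 ERK feedback genes 3 were higher and 0 lower (median 0.19). They were DUSP1, a phosphatase of MAP kinases, with 7.82, 7.12 and 6.08 CPM under JQ1-FCPF against 3.46, 4.25 and 4.62 CPM under JQ1 (edgeR adjusted p = 0.0306), PHLDA1 (1.55-fold, 0.0428) and the cyclin gene CCND1 (1.26-fold, 0.0338). Each of these 3 calls was lost in all 6 fits with 1 library left out. Of 10 Krüppel-like factor genes 0 were called.

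Among NF-kB targets 2 chemokine genes and 3 genes induced by TNF or acting as feedback inhibitors were called higher with JQ1-FCPF. CXCL2, a neutrophil chemokine (chromosome 4, positions 74097035 to 74099293, - strand), had 3.57, 5.67 and 5.15 CPM with JQ1-FCPF, against 1.30, 0.734 and 1.67 CPM with JQ1. The groups did not overlap although the gene is lowly expressed, and the log2 fold change was 1.95 ± 0.29 (SE; edgeR adjusted p = 0.00281). CXCL3, a related chemokine gene nearby, had 6.65, 7.38 and 9.54 CPM with JQ1-FCPF against 3.82, 2.20 and 4.77 CPM with JQ1 (2.18-fold, edgeR adjusted p = 0.0109, but 0.075 without JQ1 replicate 2 and 0.0653 without JQ1-FCPF replicate 3). TNFAIP3, which encodes A20, an inhibitor of the pathway, had 6.89, 8.97 and 7.85 CPM with JQ1-FCPF against 4.32, 3.37 and 4.32 CPM with JQ1 (1.97-fold, edgeR adjusted p = 0.00332). NFKBIA, the inhibitor IkB-alpha, was 1.47-fold higher, and TNFAIP2 1.34-fold (edgeR adjusted p = 0.0169 and 0.0166). NFKB2, which encodes the p100 precursor, was 1.46-fold lower, and the adhesion molecule gene ICAM1 1.45-fold lower (edgeR adjusted p = 0.0148 and 0.0329). In total, 5 of 21 tested NF-kB targets were higher and 2 lower (median 0.13), against 4.11% and 3.69% over all tested genes, and 7 higher and 4 lower without the 2 libraries that stand apart, against 22.6% called over all genes.

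The promoters of CXCL2, CXCL3 and TNFAIP3 are shown to compare the genes of this group. They lie at chr4:74099146-74099445 (- strand), chr4:74038640-74038939 (- strand) and chr6:137867009-137867308 (+ strand) in RefSeq (GRCh38.p14), and capitals mark matches of the NF-kB motif on either strand, overlapping pairs joined.
CXCL2: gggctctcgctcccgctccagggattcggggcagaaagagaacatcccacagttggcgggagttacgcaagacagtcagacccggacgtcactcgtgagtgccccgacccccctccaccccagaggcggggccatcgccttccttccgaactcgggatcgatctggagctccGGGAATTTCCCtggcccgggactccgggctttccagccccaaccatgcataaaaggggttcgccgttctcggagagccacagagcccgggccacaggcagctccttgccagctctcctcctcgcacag
CXCL3: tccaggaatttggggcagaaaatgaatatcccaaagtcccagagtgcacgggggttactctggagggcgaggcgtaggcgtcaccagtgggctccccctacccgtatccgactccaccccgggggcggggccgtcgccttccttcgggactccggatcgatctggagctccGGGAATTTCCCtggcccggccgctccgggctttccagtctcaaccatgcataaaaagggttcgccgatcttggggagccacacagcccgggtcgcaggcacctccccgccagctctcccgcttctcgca
TNFAIP3: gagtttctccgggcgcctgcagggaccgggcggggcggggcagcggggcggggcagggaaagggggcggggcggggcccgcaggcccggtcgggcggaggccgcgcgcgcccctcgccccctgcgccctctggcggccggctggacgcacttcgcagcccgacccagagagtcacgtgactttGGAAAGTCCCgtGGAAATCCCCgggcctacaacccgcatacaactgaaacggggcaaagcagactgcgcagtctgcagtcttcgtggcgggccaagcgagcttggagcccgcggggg
The matches start 78 and 77 bases before the start in CXCL2, 79 and 78 in CXCL3, and 67 and 55 in TNFAIP3. The motif was in 14.7% of the promoters of higher genes, 13.6% of those of lower genes and 12.9% of those of tested genes, so the shares lay close together.

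MYC and HEXIM1, the genes usually read after BET inhibition, did not pass the threshold between the compounds. MYC (chromosome 8, positions 127735434 to 127741434) had 197, 136 and 171 CPM with JQ1-FCPF, against 156, 161 and 143 CPM with JQ1. The groups overlapped, and the log2 fold change of 0.14 had an interval of -0.14 to 0.41 (edgeR adjusted p = 0.554). HEXIM1 had 130, 126 and 134 CPM with JQ1-FCPF against 93.7, 93.6 and 105 CPM with JQ1, groups that did not overlap (log2 fold change 0.42, interval 0.11 to 0.72, edgeR adjusted p = 0.0823). It passed with no filter on low counts, with the 6 libraries alone and without the 2 libraries that stand apart (edgeR adjusted p = 0.0101, 0.00164 and 0.000368). TXNIP, which binds thioredoxin, gave 0.07 (-0.18 to 0.32), HES1, a Notch target, 0.07 (-0.18 to 0.33), and SERPINI1, the neuroserpin gene, -0.42 (-0.72 to -0.12, edgeR adjusted p = 0.0769, which passed with the 6 libraries alone and without the 2 libraries that stand apart). Of 10 tested genes that BET inhibitors are known to raise, 1 was called, SAT1, which was lower with JQ1-FCPF. Of 9 that they are known to lower, 0 were called. Over all tested genes 7.8% were called.

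SAT1, which acetylates spermidine and spermine, had 19, 23.2 and 22.0 CPM with JQ1-FCPF, against 34.4, 36.8 and 40.5 CPM with JQ1. Each JQ1-FCPF library was below each JQ1 library (1.74-fold lower, edgeR adjusted p = 0.00292), and it was called in the 14 alternatives other than the 1.5-fold test. It was the call among 16 polyamine genes (6.25%, against 7.8% of all tested genes). Some genes of BET proteins and transcription elongation were higher. Of 23 tested BET protein and P-TEFb genes 5 were higher and 0 lower, against 4.11% and 3.69% over all tested genes. BRD2, a BET protein gene, had 302, 325 and 339 CPM with JQ1-FCPF against 237, 237 and 243 CPM with JQ1 (1.35-fold, edgeR adjusted p = 0.0229). CDK12, which phosphorylates RNA polymerase II during elongation, was 1.40-fold higher, CCNT2, a cyclin of P-TEFb, 1.44-fold, and SUPT5H, the elongation factor SPT5, 1.27-fold (edgeR adjusted p = 0.0138, 0.0345 and 0.0349). Without JQ1 replicate 2 none of BRD2, CDK12, CCNT2 and SUPT5H was called (edgeR adjusted p 0.0841 for CDK12, and higher for the others). Of the 6 fits with 1 library left out, CDK12 kept its call in 5, BRD2 in 1, and CCNT2 and SUPT5H in 0. BRD3 (log2 fold change -0.09, interval -0.33 to 0.14), CDK9 (0.16, -0.06 to 0.38) and CCNT1 (0.02, -0.19 to 0.23) did not pass, and 0 of 27 Mediator and cofactor genes did. Without the 2 libraries that stand apart 4 Mediator and cofactor genes were higher and 1 lower, against 22.6% called over all genes.

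Ribosome biogenesis genes are a class of growth genes that MYC is known to bind. Of 52 tested MYC target and ribosome biogenesis genes 14 were higher and 0 lower, 49 had a positive log2 fold change and the median was 0.27. Over all tested genes 4.11% were higher and 3.69% lower. Without the 2 libraries that stand apart 33 were higher and 0 lower, beside a background of 22.6% called. NOP56, a core protein of box C/D snoRNPs, had 302, 341 and 323 CPM with JQ1-FCPF, against 210, 183 and 198 CPM with JQ1 (1.63-fold, edgeR adjusted p = 0.0125). The groups were well apart, and the control libraries had 329, 324 and 322 CPM. UTP20 of the small-subunit processome had 45.4, 38.2 and 36.5 CPM with JQ1-FCPF against 28.8, 26.7 and 24.9 CPM with JQ1 (log2 fold change 0.58, edgeR adjusted p = 0.0111), and POLR1A, the largest subunit of RNA polymerase I, 149, 128 and 136 CPM with JQ1-FCPF against 107, 100 and 98.7 CPM with JQ1 (log2 fold change 0.43, edgeR adjusted p = 0.0236). EIF4A1, the helicase of cap-dependent initiation, was 1.90-fold higher (edgeR adjusted p = 0.00491), but 5 genes overlap it on the same strand, the read-through gene SENP3-EIF4A1 among them, so that its counts may be shared. The other called members were PPAN, PPRC1, RRP9, RRP12, WDR43, NOP2, UTP15, TSR1, GRWD1 and SLC19A1. Without JQ1 replicate 2, UTP20, NOP56 and POLR1A were not called (edgeR adjusted p = 0.0625, 0.0753 and 0.102), and each also lost its call without 1 or more other libraries, while EIF4A1 kept it in all 6 fits.

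The promoters of 2 of these genes are shown for the E-box, CACGTG, the motif that MYC and its relatives bind. RRP9 (chr3:51941855-51942154, - strand) and UTP20 (chr12:101279855-101280154, + strand) each hold 1 match, 5 and 10 bases before the start, in capitals. The same window of NOP56, POLR1A, EIF4A1 and PPAN held no match.
RRP9: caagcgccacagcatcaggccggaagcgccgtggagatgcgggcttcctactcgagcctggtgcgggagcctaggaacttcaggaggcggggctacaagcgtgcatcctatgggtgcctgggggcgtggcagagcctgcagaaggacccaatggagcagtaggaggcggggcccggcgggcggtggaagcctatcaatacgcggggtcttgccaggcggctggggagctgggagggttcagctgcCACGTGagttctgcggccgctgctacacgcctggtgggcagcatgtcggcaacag
UTP20: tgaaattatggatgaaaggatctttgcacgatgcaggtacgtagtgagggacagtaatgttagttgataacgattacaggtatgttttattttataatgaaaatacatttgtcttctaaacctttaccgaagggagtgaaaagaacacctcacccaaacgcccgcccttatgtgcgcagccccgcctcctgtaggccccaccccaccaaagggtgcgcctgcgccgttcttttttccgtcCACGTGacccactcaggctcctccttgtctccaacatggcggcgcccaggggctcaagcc
CACGTG was in 73 of 463 promoters of genes higher with JQ1-FCPF (15.8%), in 21 of 420 of lower genes (5%) and in 10.2% of those of tested genes. Within the ribosome biogenesis list 19 of 44 promoters held it, and 4 of the 13 of called members (NOP2, RRP9, UTP20 and WDR43).

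Calls among S phase genes were of higher and those among mitotic genes of lower levels with JQ1-FCPF, and most members of both lists did not pass. Of 42 tested S phase and E2F genes 9 were higher with JQ1-FCPF and 0 lower (median 0.18), against 4.11% higher and 3.69% lower over all tested genes, and 17 higher and 1 lower without the 2 libraries that stand apart, against 22.6% called over all genes. E2F1, which drives entry into S phase, had 51.4, 60.3 and 66.8 CPM with JQ1-FCPF against 41.5, 37.9 and 41.7 CPM with JQ1 (1.47-fold, edgeR adjusted p = 0.00742), and E2F4 had 112, 125 and 118 CPM with JQ1-FCPF against 82.5, 77.8 and 75.5 CPM with JQ1 (edgeR adjusted p = 0.00742). MCM10, a factor of replication initiation, and RRM2, the small subunit of ribonucleotide reductase, had log2 fold changes of 0.39 and 0.38 (edgeR adjusted p = 0.0231 and 0.0345). Of 41 G2/M genes 4 were lower and 0 higher (median -0.15), and 16 lower and 1 higher in the fit without those 2 libraries, against the same shares over all genes. They were NEK2, a centrosome kinase, at 55.1, 45.8 and 48.5 CPM with JQ1-FCPF against 72.5, 75 and 67.7 CPM with JQ1 (edgeR adjusted p = 0.0147), CDC25C, NUSAP1 and CENPA (log2 fold changes -0.57, -0.34 and -0.41). The CDK inhibitor gene CDKN1C had 25.1, 29.9 and 28.9 CPM with JQ1-FCPF against 40.8, 44.6 and 47.0 CPM with JQ1 and CDKN3 a log2 fold change of -0.43 (edgeR adjusted p = 0.00846 and 0.0193). Without JQ1 replicate 2 none of these genes was called (edgeR adjusted p 0.0563 for E2F1, 0.0511 for E2F4 and CDKN1C). Of the 6 fits with 1 library left out, E2F1, E2F4, MCM10 and RRM2 were called in 4, 5, 1 and 0. NEK2, CDC25C, NUSAP1 and CENPA were called in 2, 0, 1 and 0 of these fits, and CDKN1C and CDKN3 in 5 and 1. The phase of the cells was not measured.

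**Figure D1:**
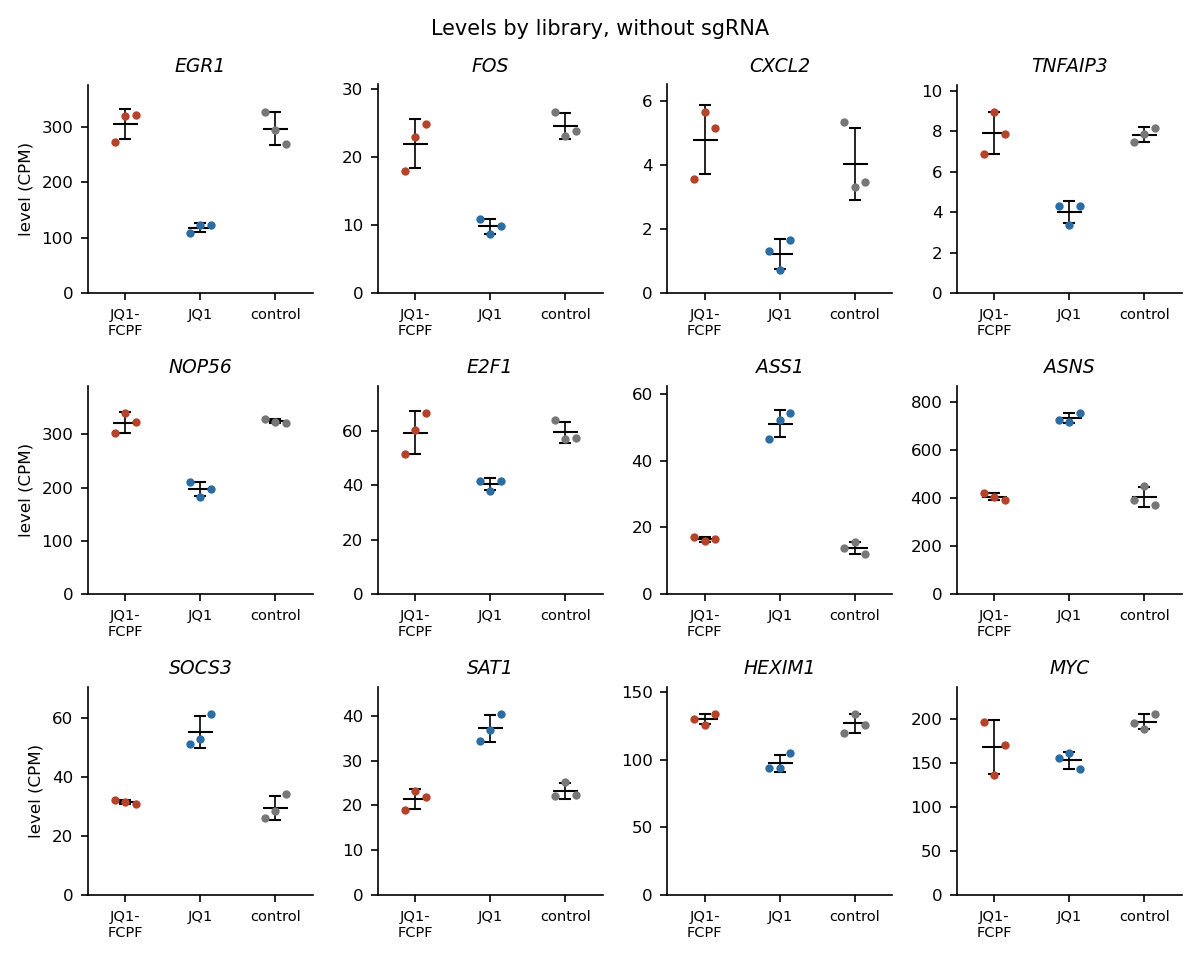
Levels in CPM of 12 genes in each library, with JQ1-FCPF on the left, JQ1 in the middle and the control on the right, 3 libraries each, with the mean and SD in black and the axis starting at 0. For EGR1 the JQ1-FCPF libraries sit between 274 and 322 CPM and the JQ1 libraries between 108 and 123 CPM, for ASS1 they sit between 15.8 and 17.2 CPM and between 46.7 and 54.5 CPM, and for MYC the groups overlap.

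By the same rule (mean of at least 5 CPM, no overlap between groups) the largest fall with JQ1-FCPF among called protein-coding genes was in ASS1. ASS1 is argininosuccinate synthase, which makes argininosuccinate from citrulline and aspartate (chromosome 9, positions 130444929 to 130501274). It had 17.2, 15.8 and 16.6 CPM with JQ1-FCPF, against 46.7, 52.4 and 54.5 CPM with JQ1. No library of either group came near the other group (3.09-fold lower, log2 fold change -1.63 ± 0.27 SE, edgeR adjusted p = 0.00392, called in the 14 alternatives other than the 1.5-fold test). ASNS, asparagine synthetase, had 421, 407 and 391 CPM with JQ1-FCPF against 727, 720 and 757 CPM with JQ1 (1.81-fold lower, edgeR adjusted p = 0.00533). PHGDH, the first enzyme of serine synthesis, had 208, 202 and 208 CPM with JQ1-FCPF against 346, 367 and 369 CPM with JQ1 (edgeR adjusted p = 0.00897), and PSAT1, the next enzyme, 313, 265 and 292 CPM with JQ1-FCPF against 378, 419 and 372 CPM with JQ1 (edgeR adjusted p = 0.0436). Of 35 ATF4 and unfolded protein genes, which hold ASNS and PHGDH but not ASS1, 6 were lower and 1 higher with JQ1-FCPF (median -0.12). Over all tested genes 3.69% were lower and 4.11% higher. Without the 2 libraries that stand apart 13 of the 35 were lower and 1 higher, against 22.6% called over all genes. DDIT3, the transcription factor CHOP, had 30.9, 40.5 and 34.5 CPM with JQ1-FCPF against 51.9, 54.2 and 54.6 CPM with JQ1, and MTHFD2 and WARS1 had log2 fold changes of -0.56 and -0.54 (edgeR adjusted p = 0.0109, 0.0309 and 0.033). The member that rose was CHAC1, which degrades glutathione, with 51.5, 59.5 and 52.5 CPM with JQ1-FCPF against 34.0, 31.5 and 26.8 CPM with JQ1 (log2 fold change 0.82, edgeR adjusted p = 0.0185), and ATF4 itself gave 0.09 (-0.14 to 0.33). Without JQ1 replicate 2, PHGDH, DDIT3, CHAC1 and PSAT1 were not called (edgeR adjusted p = 0.0544, 0.0599, 0.0776 and 0.178). These 4 genes were called in 5, 4, 1 and 0 of the 6 fits with 1 library left out, and ASNS was called in all 6 fits.

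ASNS and CHAC1 moved in opposite directions and are shown with the motif TGATGNAA, the form of the C/EBP-ATF site in amino acid response genes, which was searched after the values were seen. Their promoters lie at chr7:97872359-97872658 (- strand) and chr15:40953221-40953520 (+ strand), and each holds 1 match in capitals, 68 bases before the start in ASNS and 209 in CHAC1, where it lies on the other strand. No match was found in the same window of PSAT1, PHGDH, DDIT3 or ASS1.
ASNS: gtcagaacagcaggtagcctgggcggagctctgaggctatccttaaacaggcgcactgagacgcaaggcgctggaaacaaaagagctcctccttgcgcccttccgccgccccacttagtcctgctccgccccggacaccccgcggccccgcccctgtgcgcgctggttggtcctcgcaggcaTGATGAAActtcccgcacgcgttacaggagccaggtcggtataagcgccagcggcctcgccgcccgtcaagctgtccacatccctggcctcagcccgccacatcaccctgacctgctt
CHAC1: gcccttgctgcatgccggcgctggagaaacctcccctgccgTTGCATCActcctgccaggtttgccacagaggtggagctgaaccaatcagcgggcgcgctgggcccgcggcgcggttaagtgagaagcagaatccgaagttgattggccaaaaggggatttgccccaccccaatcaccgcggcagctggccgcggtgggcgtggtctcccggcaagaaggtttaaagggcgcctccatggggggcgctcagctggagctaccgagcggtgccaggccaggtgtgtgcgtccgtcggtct
The motif was in 6 of 463 promoters of higher genes (1.3%), 14 of 420 of lower genes (3.33%) and 1.62% of those of tested genes.

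Cytokine signalling genes showed both directions. SOCS3, a feedback inhibitor of JAK-STAT signalling, had 32.3, 31.5 and 30.7 CPM with JQ1-FCPF, against 51.3, 52.8 and 61.4 CPM with JQ1, so that the groups were clearly apart (1.75-fold lower, edgeR adjusted p = 0.00281). SOCS2, from the same family, was the other way round, at 157, 152 and 150 CPM with JQ1-FCPF against 115, 118 and 116 CPM with JQ1 (1.31-fold higher, edgeR adjusted p = 0.0215). These were the called members among 12 STAT5 targets (16.7%, against 7.8% of all tested genes, median -0.19). CISH and PIM1 had log2 fold changes of -0.42 and -0.46 with intervals of -0.74 to -0.11 and -1.17 to 0.25 (edgeR adjusted p = 0.0862 and 0.423). BAMBI, a decoy receptor for TGF-beta, was higher with JQ1-FCPF (log2 fold change 0.67), and ID3 and SMAD6, both targets of BMP signalling, were lower (-0.58 and -0.44; edgeR adjusted p = 0.00851, 0.0106 and 0.0309). Of 14 Notch and HES family genes 0 were called. Without JQ1 replicate 2 SOCS2, BAMBI, ID3 and SMAD6 were not called (edgeR adjusted p of at least 0.0511), while SOCS3 was called in all 6 fits with 1 library left out.

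Other large falls came from genes of unrelated kinds. MUC4, a membrane mucin, had 4.62, 5.87 and 6.31 CPM with JQ1-FCPF against 13.4, 15.3 and 18.2 CPM with JQ1 (2.80-fold lower, edgeR adjusted p = 0.00402). AIF1L, an actin-bundling protein gene, had 14, 14 and 14.6 CPM with JQ1-FCPF against 33.0, 37.3 and 30.1 CPM with JQ1 (2.36-fold lower, edgeR adjusted p = 0.00331). UBE2L6, the E2 enzyme of ISG15 conjugation, had 14.2, 11.8 and 13.8 CPM with JQ1-FCPF against 26.9, 30.9 and 29 CPM with JQ1 (2.18-fold lower, edgeR adjusted p = 0.00292). The rule that named these 3 genes required no overlap between groups, which held for 36.2% of all tested genes. Each of the 3 was called in all 6 fits with 1 library left out. S100P, a calcium-binding protein gene, the tight junction gene TJP3 and TAFA2, a chemokine-like gene, had log2 fold changes of -1.08, -1.28 and -0.99 (edgeR adjusted p = 0.0219, 0.0125 and 0.0195), calls kept in 0, 3 and 1 of the 6 fits with 1 library left out. Of 18 interferon genes 1 was lower (5.56%, against 7.8% of all tested genes called). It was BST2 (tetherin), with an edgeR adjusted p of 0.0498 that passed in none of the fits with 1 library left out.

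Among the erythroid genes 13.3% of transcription factor genes and 6.06% of globin, heme and iron genes were called, against 7.8% of all tested genes. Of 15 erythroid transcription factor genes 2 were higher with JQ1-FCPF, LDB1, an adaptor of the GATA1 complex, with 203, 221 and 223 CPM with JQ1-FCPF against 144, 155 and 171 CPM with JQ1, and ZFPM1, the GATA1 cofactor FOG1, with 137, 154 and 183 CPM with JQ1-FCPF against 110, 112 and 127 CPM with JQ1 (edgeR adjusted p = 0.0106 and 0.0345). GATA1 gave a log2 fold change of -0.08 (-0.32 to 0.15). Of 33 globin, heme and iron genes EPOR, the erythropoietin receptor gene, was higher (log2 fold change 0.54) and HBE1, epsilon globin, lower (277, 296 and 280 CPM with JQ1-FCPF against 399, 385 and 366 CPM with JQ1; edgeR adjusted p = 0.0166 and 0.0357). HBE1 overlaps other genes of the globin locus in the annotation, HBG2 among them, so its counts may be shared. All 4 calls were lost without JQ1 replicate 2, with edgeR adjusted p of at least 0.0626. LDB1, ZFPM1, EPOR and HBE1 kept their calls in 3, 1, 2 and 0 of the 6 fits with 1 library left out.

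Lipid, stress and other lists differed in the share called, beside 7.8% over all tested genes (4.11% higher and 3.69% lower). Called were 15.6% of cholesterol and fatty acid genes and 25% of snoRNA host genes. The shares were 3.85% of p53 targets, 3.57% of heat shock genes, 2.94% of glycolysis and hypoxia genes and 5.05% of chromosome 19 zinc finger genes. Of 32 cholesterol and fatty acid genes 4 were lower with JQ1-FCPF, FDFT1, MSMO1, IDI1 and INSIG1, and 1 was higher, SREBF1, the transcription factor of lipid synthesis (median -0.09). FDFT1, squalene synthase, had 267, 226 and 231 CPM with JQ1-FCPF against 365, 399 and 384 CPM with JQ1, and SREBF1 had 232, 264 and 274 CPM with JQ1-FCPF against 179, 162 and 192 CPM with JQ1 (edgeR adjusted p = 0.0145 and 0.00868, lost without JQ1 replicate 2 at 0.0750 and 0.0662). Of 26 p53 targets CCNG1 was lower, of 28 heat shock genes SERPINH1, of 34 glycolysis and hypoxia genes ALDOC and of 14 clock genes CRY1 (log2 fold changes -0.57, -0.39, -0.72 and -0.55, edgeR adjusted p = 0.00874, 0.0417, 0.00732 and 0.0237), calls kept in 4, 0, 5 and 2 of the 6 fits with 1 library left out. Of 24 NRF2 genes, 17 BCL2 family genes, 50 histone genes and 7 myeloid genes 0 were called, and the MYC relative MYCL was the call among 12 MYC network genes (-0.84, edgeR adjusted p = 0.036), kept in 0 of these 6 fits. Without the 2 libraries that stand apart 22.6% of all genes were called. In that fit 1 NRF2 gene was higher and 6 lower, and 1 BCL2 family gene higher and 6 lower. Of the histone genes 2 were lower there, and of the myeloid genes 1. Of 28 snoRNA host genes 5 were higher, SNHG4, SNHG7, SNHG11, SNHG15 and SNHG17, and 2 lower, SNHG6 and SNHG32, where read sharing with the snoRNAs inside them is possible. SNHG4, SNHG11 and SNHG17 kept their calls in 1, 5 and 2 of the 6 fits with 1 library left out, and SNHG6 and SNHG32 in 0. Of 198 zinc finger genes on chromosome 19, 6 were higher and 4 lower (median 0.00).

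**Figure D2:**
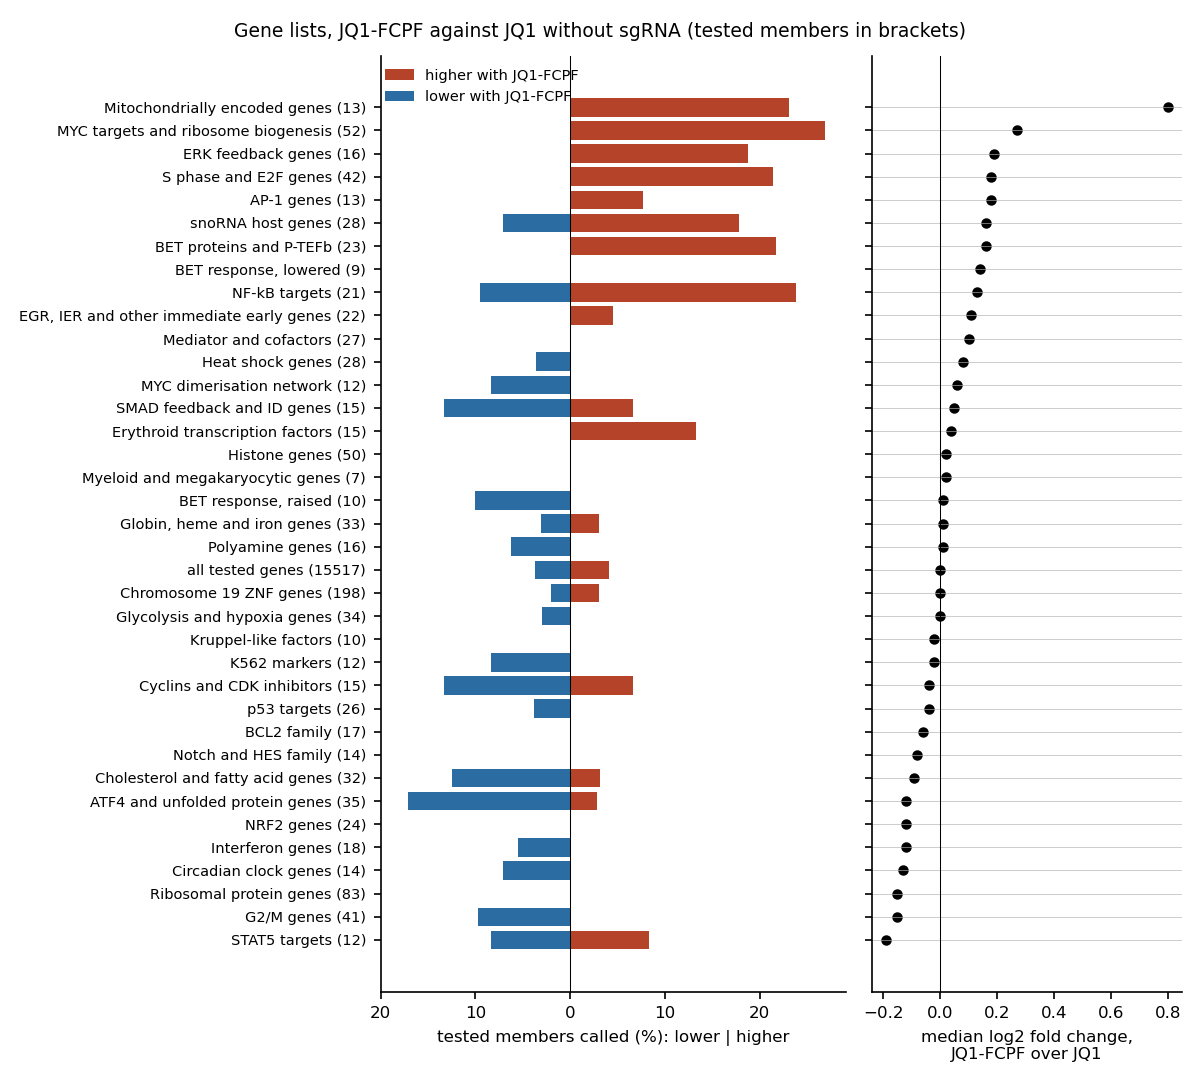
For each gene list with at least 7 tested members, other than the 5 lists added after the data were seen (number in brackets), the left panel gives the percentage called higher (red, to the right) and lower (blue, to the left) with JQ1-FCPF than with JQ1, and the right panel the median log2 fold change. The lists are ordered by that median, from 0.80 for mitochondrially encoded genes to -0.19 for STAT5 targets, and all tested genes stand at 4.11% higher, 3.69% lower and a median of 0.00.

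Mitochondrially encoded and ribosomal protein genes set the make-up of the libraries. Genes of the mitochondrial genome took 2.789%, 5.222% and 5.703% of counts with JQ1-FCPF, against 2.308%, 2.343% and 3.218% with JQ1. JQ1-FCPF replicate 1 lay within the range of JQ1, and an exact two-sided permutation test of 3 against 3 libraries gave p = 0.2, where 0.1 is the smallest it can give. MT-ND1, a complex I subunit, MT-CYB of complex III and MT-ATP8 of ATP synthase were called higher (log2 fold changes 1.14, 1.13 and 1.23, edgeR adjusted p = 0.0284, 0.0267 and 0.0346) and all 13 protein-coding genes of this genome had a positive value, but DESeq2 called none of those 3, and 11 of 13 were called without the 2 libraries that stand apart. Ribosomal protein genes took 10.027% to 10.695% of counts with JQ1-FCPF and 11.404% to 12.184% with JQ1 (exact permutation p = 0.1). Of the 83 tested, 0 were called and 6 had a positive log2 fold change (median -0.15). Without the 2 libraries that stand apart 1 of them was higher and 16 lower, against 22.6% called over all genes. The part of mitochondrially encoded and ribosomal protein genes in the other results was not tested. With mitochondrially encoded genes left out, 1231 genes were called, 1182 of the 1210 among them.

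The higher and lower genes differed in gene structure. Over protein-coding genes the median span was 18.2 kb for the 532 genes higher with JQ1-FCPF, 34.6 kb for the 524 lower genes and 30.4 kb for all 12126 tested. Genes over 100 kb were 7.14% of the higher, 18.9% of the lower and 17.3% of all genes. The share called higher was 4.92% among genes under 5 kb, 7.36% among genes of 5 to 10 kb, 2.8% at 50 to 100 kb and 1.65% over 200 kb, while the share called lower ran between 3.03% and 5.08% over the same classes. Exonic GC content had a median of 56.8% in the higher, 48.2% in the lower and 48.8% in all genes, and the share called higher was 1.98% in the lowest and 8.17% in the highest of 5 classes of GC content. With offsets for GC content and exonic length in the fit 1546 genes were called, 1119 of the 1210 among them. Span was not part of these offsets, and the shares by span and GC content were not computed again in that fit. GC content and span go together, the library kit is not given, and whether either moved with RNA quality was not tested.

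**Figure D3:**
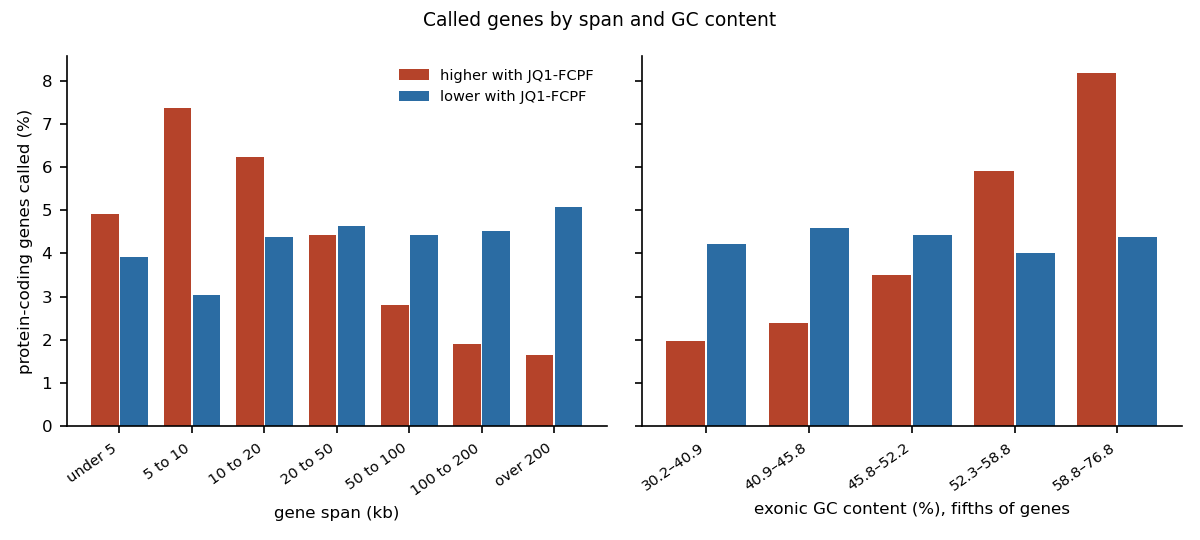
Percentage of tested protein-coding genes called higher (red) and lower (blue) with JQ1-FCPF than with JQ1, by gene span in kb (left) and by 5 equal classes of exonic GC content (right), on axes from 0. The red bars stand at 4.92% under 5 kb, are highest at 5 to 10 kb (7.36%) and decline to 1.65% over 200 kb, and they climb from 1.98% to 8.17% with GC content, while the blue bars stay between 3.03% and 5.08%.

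The levels of the control place both compounds on a common scale. The contrasts of either compound with the control share the 3 control libraries, and each shares its compound libraries with the comparison above, so their values are given side by side. JQ1-FCPF differed from the control in 1 of 15517 genes (0.00644%; 285 genes at an unadjusted p under 0.05, 2 genes by DESeq2) and JQ1 in 1908 (12.3%; edgeR adjusted p under 0.05). For the 638 genes higher with JQ1-FCPF than with JQ1, the median log2 fold change against the control was 0.01 for JQ1-FCPF (quartiles -0.06 and 0.09) and -0.55 for JQ1 (-0.75 and -0.42). For the 572 lower genes it was 0.00 for JQ1-FCPF (-0.09 and 0.09) and 0.60 for JQ1 (0.43 and 0.83). EGR1 stood at 0.04 (interval -0.43 to 0.51) for JQ1-FCPF and -1.33 (-1.81 to -0.85) for JQ1, ASS1 at 0.26 (-0.34 to 0.85) and 1.89 (1.31 to 2.46), and ASNS at 0.00 (-0.32 to 0.32) and 0.85 (0.54 to 1.17). The same contrasts put HEXIM1 at 0.03 (-0.27 to 0.33) for JQ1-FCPF and -0.38 (-0.69 to -0.08) for JQ1, and MYC at -0.22 (-0.50 to 0.05) and -0.36 (-0.63 to -0.09). The intervals for JQ1-FCPF against the control span 0 in these 5 genes and leave room for changes in either direction, and a p that misses the threshold does not show that JQ1-FCPF left these genes at the control level.

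The gene called for JQ1-FCPF against the control was SKIL, which encodes SnoN, a co-repressor of SMAD proteins, named here after its values were seen (chromosome 3, positions 170357678 to 170396835). It had 17.5, 17.8 and 15.6 CPM with JQ1-FCPF and 15.9, 16 and 16.6 CPM with JQ1, against 33.9, 33.5 and 34.1 CPM in the control. Both compounds lay about 2-fold below the control, with log2 fold changes of -0.99 and -1.06 (edgeR adjusted p = 0.000785 and 0.000144), and JQ1-FCPF and JQ1 differed by 0.07 with an interval of -0.19 to 0.33. The libraries with sgRNA, at 14.6 to 20.9 CPM with JQ1-FCPF and 16 to 16.8 CPM with JQ1, were in the same range.

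The same pair of compounds in cells with sgRNA gave 458 called genes (2.95%), 183 higher and 275 lower with JQ1-FCPF, in libraries that the comparison without sgRNA did not use. Of the 638 genes higher without sgRNA 33 were also called higher with sgRNA (5.17% of the 638 and 18% of the 183), 9 were called lower, and 77.6% had a positive sign, with a median of 0.15. Of the 572 lower genes 15 were called lower with sgRNA (2.62% of the 572 and 5.45% of the 275), 0 higher, and 82.5% had a negative sign, with a median of -0.17. Without the 2 libraries that stand apart, where 3176 genes were called with sgRNA (20.2%), 265 of the 638 (41.5%) and 288 of the 572 (50.3%) were called in the same direction and 14 and 2 in the opposite one. EGR1 was higher with JQ1-FCPF in both settings (log2 fold change 1.87 with sgRNA, edgeR adjusted p = 0.000101), and SOCS3 lower in both (-0.99, 8.14e-05).

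The difference between the contrasts without and with sgRNA was tested directly, and 122 genes passed (0.786%), 92 with a higher and 30 with a lower value without sgRNA. Among the 1210 genes called without sgRNA 48 passed, 40 of the higher and 8 of the lower ones. CXCL2 was 1.95 higher on the log2 scale with JQ1-FCPF than with JQ1 without sgRNA and had a value of -1.52 with sgRNA (difference 3.47 ± 0.52 SE, edgeR adjusted p = 0.00187). CXCL3 had 1.12 without and -1.44 with sgRNA, and CCND1 0.34 and -0.60 (edgeR adjusted p of the difference 0.00338 and 0.00134). FOS had 1.16 without and 2.87 with sgRNA (0.0325). SAT1 and ASNS, both lower without sgRNA, had 0.37 and 0.09 with sgRNA (0.00187 and 0.0396). MYC, HES1 and TXNIP, which did not pass without sgRNA, had -1.10, -1.31 and 1.28 with sgRNA (edgeR adjusted p of the difference 0.00187, 0.0012 and 0.00124). Histone genes had a median of 0.02 without sgRNA and 0.93 with sgRNA, with 0 and 27 of 50 called higher. Over all tested genes 4.11% were higher without sgRNA, and 183 of 15517 with sgRNA. The difference itself passed in 12 of the 50 histone genes, against 0.786% of all tested genes.

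**Figure D4:**
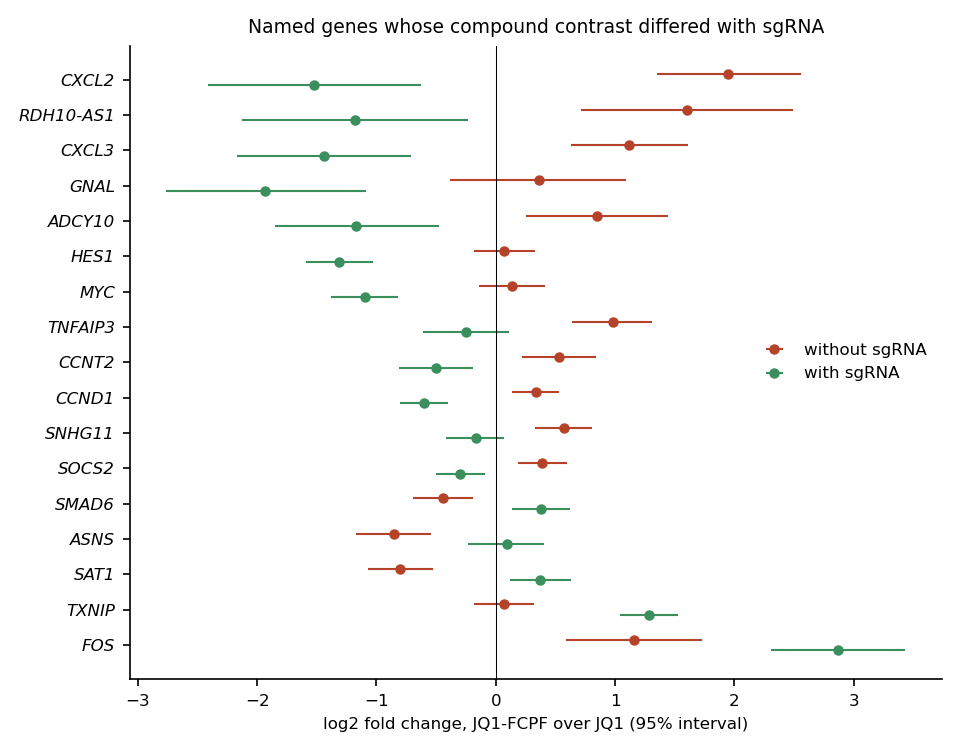
Log2 fold change, JQ1-FCPF over JQ1, with its 95% interval for the 17 named genes whose contrast differed between settings, in cells without sgRNA (red) and with sgRNA (green). CXCL2 lies at 1.95 without and -1.52 with sgRNA, MYC at 0.14 and -1.10, and FOS at 1.16 and 2.87.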

How the data were processed

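The files hold read counts per gene for 15 libraries, 1 file a library, deposited by the authors as raw counts with gene positions per the file headers. The aligner, the counting program, the genome build and the use of strand were not stated (not given in the sources used here). Gene positions were matched to GENCODE 29 (GRCh38): 56898 of 57500 gene identifiers were found there, 96.3% with the same start and end.

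Groups came from the genotype and treatment labels. All 15 libraries entered 1 fit with edgeR 4.0.16 in R 4.3.3 (TMM scaling, filterByExpr, which kept 15517 genes, quasi-likelihood test), with p-values adjusted by Benjamini and Hochberg over all genes tested, a threshold of 0.05, 95% intervals and a common biological variation of 11.1%. Levels are CPM with TMM scaling. The groups share title letters, but deviations of libraries with the same letter correlated at 0.031, -0.147 and 0.048, so the letters do not pair them. DESeq2 1.42.0, DESeq2 size factors, no filter, the 6 libraries alone, a replicate block, each of the 6 libraries left out in turn, offsets for GC content and length, a 1.5-fold threshold and a fit of 13 libraries (15731 genes, variation 7.4%) served as alternatives. Scripts were tested on simulated data.

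Named genes were 8 BET-related and marker genes, the largest called changes in each direction among protein-coding genes (up to 15) and non-coding genes (up to 4) with a mean of at least 5 CPM and no overlap between groups, up to 4 called members per gene list, up to 5 abundant called genes per direction and the largest differences with sgRNA, 109 genes in all. Members, lists and alternatives were chosen with earlier results of these data known. The fit without mitochondrially encoded genes, the motif TGATGNAA and 5 further gene lists were added after the data were seen. Promoter sequences are from RefSeq (GRCh38.p14), and 463 of 638 higher genes (72.6%) and 420 of 572 lower genes (73.4%) had one. All 8 motifs were searched on both strands, and matches may overlap. Results for some genes are not reported here.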

Additional observations from a re-analysis of the deposited data

Results flagged for a closer look

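In the test of the difference between the compound contrasts, without sgRNA minus with sgRNA, 17 named genes passed, 12 with a positive and 5 with a negative difference. These counts depend on how genes were named. CXCL2, RDH10-AS1, CXCL3, GNAL and ADCY10 met the rule that took the largest differences in this same test. Most other named genes were chosen on the contrast without sgRNA, which is part of the difference. CXCL2 had a difference of 3.47 on the log2 scale, RDH10-AS1 (an antisense RNA) 2.78, CXCL3 2.56, GNAL (a G protein subunit) 2.28 and ADCY10 (soluble adenylyl cyclase) 2.01 (edgeR adjusted p = 0.00187, 0.0351, 0.00338, 0.0489 and 0.0264). GNAL and RDH10-AS1 had levels near 1 CPM, so few reads lie behind them. HES1 differed by 1.38, MYC by 1.24, TNFAIP3 by 1.23, CCNT2 by 1.03 and CCND1 by 0.94 (edgeR adjusted p = 0.0012, 0.00187, 0.0129, 0.0182 and 0.00134). The smaller positive differences were 0.74 for SNHG11 and 0.69 for SOCS2 (edgeR adjusted p = 0.0293 and 0.0168). Negative differences were -1.71 for FOS, -1.22 for TXNIP, -1.17 for SAT1, -0.94 for ASNS and -0.82 for SMAD6 (edgeR adjusted p = 0.0325, 0.00124, 0.00187, 0.0396 and 0.018).

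The values with sgRNA rest in part on the libraries that stand apart. In all 17 genes the log2 fold change with sgRNA, JQ1-FCPF over JQ1, had the same sign in the fit without them, except ASNS, which had 0.09 in the fit of all libraries and -0.28 without them. FOS had 2.87 with sgRNA and 3.56 without those libraries, MYC -1.10 and -1.19, CXCL2 -1.52 and -1.71, and CCNT2 -0.50 and -0.23 for the same fits. The cause of these differences was not tested.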

How the results depend on the processing

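The 1210 genes called between JQ1-FCPF and JQ1 without sgRNA became 2959 with the 6 libraries alone, 3554 without the 2 libraries that stand apart and 1 against a change of 1.5-fold. They were 1453 with DESeq2, 1200 with DESeq2 size factors, 1466 with no filter, 1546 with offsets for GC content and length, 1231 without mitochondrially encoded genes and 1122 with the title letter as a replicate block, which moved the other counts to 380 with sgRNA, 93 for the difference, 1 for JQ1-FCPF against the control and 1739 for JQ1 against the control. Leaving out 1 library gave 76 to 973 genes for JQ1-FCPF against JQ1 without sgRNA, 358 to 484 with sgRNA, 50 to 136 for the difference, 1 in each fit for JQ1-FCPF against the control and 696 to 1939 for JQ1 against the control. With sgRNA 822 genes were called with no filter and 3176 without the 2 libraries. The difference between contrasts gave 245 genes with DESeq2, 316 with no filter and 511 without the 2 libraries. JQ1-FCPF against the control gave 2 genes with DESeq2, 2 with GC and length offsets and 4 without the 2 libraries, and JQ1 against the control 4234 without the 2 libraries. The cause of these shifts was not tested, beyond the fewer libraries or genes in each fit.

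Of the 101 named calls, 97 were kept with DESeq2, which lost MT-ATP8, MT-ND1 and MT-CYB and gave no adjusted p for RDH10-AS1. GC and length offsets lost PSAT1, SUPT5H, NUSAP1 and CENPA, size factors lost BST2, and the replicate block lost HSP90B1 and PHLDA1. Depth limits the low genes most, such as CXCL2 at 0.734 CPM in JQ1 replicate 2.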

Other observations

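Some genes of antigen presentation by MHC class I were called lower with JQ1-FCPF than with JQ1. This list and the other lists of this section were written after the values were seen, so their counts are a description with no test. Of 17 tested genes 9 were lower and 0 higher, with a median log2 fold change of -0.40, against a median of 0.00 and 3.69% lower over all tested genes, while the summed level of the list overlapped between the groups (2820 to 3140 CPM with JQ1-FCPF, 3100 to 3120 CPM with JQ1). HLA-B, a class I heavy chain, had 2.71, 3.16 and 2.54 CPM with JQ1-FCPF, against 5.40, 6.02 and 4.92 CPM with JQ1, and HLA-C had 13, 10.5 and 12.2 CPM with JQ1-FCPF against 20.9, 21.5 and 20.1 CPM with JQ1 (edgeR adjusted p = 0.0109 and 0.007). B2M, the light chain, had 275, 253 and 272 CPM with JQ1-FCPF against 366, 366 and 330 CPM with JQ1 (edgeR adjusted p = 0.0184). HLA-E, the peptide transporter subunit TAP1, tapasin (TAPBP), the immunoproteasome subunit PSMB9, the peptidase ERAP2 and the interferon gamma receptor IFNGR1 were the other lower genes, by 1.29- to 2.06-fold. Class I genes are near-identical in places, and reads shared between them may be split by the counting. With sgRNA 0 of the 17 were called, and the median was -0.12.

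Calls among splicing factor and histone methylation genes were all of higher levels with JQ1-FCPF. Over all tested genes 4.11% were higher and 3.69% lower, the background for both lists. Of 21 tested SR protein, splicing and CLK kinase genes 5 were higher with JQ1-FCPF and 0 lower (median 0.26). SRSF1, the founding SR protein, had 407, 382 and 398 CPM with JQ1-FCPF against 264, 269 and 277 CPM with JQ1 (1.46-fold, edgeR adjusted p = 0.0206), and SRSF6 had 217, 214 and 221 CPM with JQ1-FCPF against 138, 146 and 154 CPM with JQ1 (1.49-fold, edgeR adjusted p = 0.0177). The others were SRSF8, SRSF10 and U2AF2. Of 20 genes of H3K4 methylation and related chromatin complexes 5 were higher and 0 lower (median 0.20), namely the methyltransferases SETD1A, SETD1B and KMT2B and the scaffold genes BRPF1 and BRPF3, by 1.26- to 1.49-fold.

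Amino acid genes went both ways. Of 26 genes of amino acid synthesis and uptake 6 were lower with JQ1-FCPF and 2 higher (median -0.21). Over all tested genes 3.69% were lower and 4.11% higher. CTH, which makes cysteine from cystathionine, had 16.5, 14.1 and 15.7 CPM with JQ1-FCPF against 30.7, 29.1 and 26.7 CPM with JQ1 (1.87-fold lower, edgeR adjusted p = 0.0179). MAT2A, which makes S-adenosylmethionine, had 287, 408 and 312 CPM with JQ1-FCPF against 161, 154 and 225 CPM with JQ1 (1.87-fold higher, edgeR adjusted p = 0.00851), and the glutamine carrier SLC38A2 had 220, 195 and 189 CPM with JQ1-FCPF against 141, 132 and 151 CPM with JQ1 (1.42-fold higher, edgeR adjusted p = 0.00629). Of 20 aminoacyl-tRNA synthetase genes AARS1, SARS1 and WARS1 were lower and 0 higher (median -0.18), against the same shares over all genes.

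Among the nuclear chromosomes, calls were most frequent on chromosome 19, with 77 higher and 58 lower of 1224 tested genes (11%), and on chromosome 16, with 64 higher and 25 lower of 818 (10.9%), against 7.8% of all tested genes and 4.31% on chromosome 13. Gene density, GC content and span differ between chromosomes, and their part in these shares was not tested.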
